A study of Mus musculus with 12 samples.

Results

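MFN2 and WT mice were compared within a single run of library numbers, 3 MFN2 libraries (41 to 43) against 4 WT libraries (44 to 47). These 7 libraries of the 12 in the series were chosen by genotype label and library number, without reference to any expression value. Each library held bulk RNA from the spinal cord of 1 untreated mouse aged 30 days, taken from the lumbar segment by the methods of the study. The MFN2 mice are labelled CMT2A, of the MitoCharc1 line, which carries Tg(Eno2-MFN2*R94Q)L51Ugfm on a B6;D2 background, and the WT mice are labelled C57BL/6, whereas the methods of the study describe WT littermates. MFN2 mice are hemizygous for a human MFN2 gene with the R94Q substitution behind the rat Eno2 promoter, which is active mainly in neurons, and keep both copies of mouse Mfn2. All MFN2 mice come from a single transgenic line on a mixed background, so that the transgene, its site and any background allele inherited with it cannot be told apart. Total counts ranged from 21803177 to 26738930 in the MFN2 libraries and from 19453238 to 23564568 in the WT libraries. Genes above 1 CPM (counts per library total, in the usual CPM unit, before any scaling) in 3 or more of the 7 libraries numbered 15200 of 49548. Levels in CPM below are instead per total of these kept genes, after TMM scaling for library composition. The human transgene was not analysed here.

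Mitochondria constantly merge and divide. Merging of outer membranes needs the mitofusins MFN1 and MFN2, merging of inner membranes needs OPA1, and division is carried out by DRP1 once adaptors such as MFF have recruited it. Contacts with the endoplasmic reticulum and transport by motor proteins along the axon depend on MFN2 too, and dominant mutations of its gene cause Charcot–Marie–Tooth type 2A, a neuropathy of long motor and sensory axons.

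A processed pseudogene of a ribosomal protein gene was the only gene past the threshold in the edgeR quasi-likelihood test, both with and without library 43. DESeq2 called 5 genes with and 11 without library 43, and the edgeR likelihood ratio test called 1 and 10. Rpsa-ps10 (ENSMUSG00000047676) is found at chr3:150072658-150073542 (GRCm38, minus strand) and is an intronless copy of Rpsa, which encodes a protein of the small ribosomal subunit on chromosome 9. Its level was 76.6, 41.4 and 37.5 CPM in MFN2 libraries 41, 42 and 43. In the WT libraries 44 to 47 it was 1.33, 2.21, 1.60 and 1.94 CPM. Every MFN2 library lay far above every WT library, and library 41 lay highest. Rpsa-ps10 rose in MFN2 mice with a log2 fold change of 4.87 (SE 0.31; FDR = 0.00883, edgeR quasi-likelihood test with Benjamini-Hochberg adjustment). Without library 43 the log2 fold change was 5.07 (SE 0.27; FDR = 0.00245 in the same edgeR test). It was 1 of 15200 genes in either fit, or 0.00658% of the genes tested with library 43 and 0.00658% without it. The call was lost when any 1 WT library was left out of the fit with library 43 (FDR between 0.06 and 0.136, edgeR), while the log2 fold change stayed between 4.76 and 4.998, and it was also lost with limma-voom, without a filter on low counts, with all 12 libraries in 1 fit and with Xist as a covariate. In the fit without library 43 it was lost without WT library 46 (FDR = 0.0784) or 47 (FDR = 0.189, edgeR) and with all 12 libraries in 1 fit. Within libraries with Xist, library 42 lay above 45, 46 and 47, and within those with Y transcripts, library 41 lay above 44. This order follows from the separation of all the libraries and is no test of sex.

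The parent gene Rpsa was counted at 255, 356 and 253 CPM in libraries 41, 42 and 43. Its WT levels were 332, 405, 381 and 358 CPM in libraries 44 to 47. The groups overlapped, because library 42 lay above WT library 44, and the log2 fold change was -0.36 (SE 0.14; FDR = 0.622, edgeR). Summed over both loci, the level was 332, 397 and 291 CPM in MFN2 and 333, 408, 382 and 360 CPM in WT libraries, with library 42 within the WT range, library 41 just below it and library 43 lowest. The pseudogene is 885 bases long and aligned without gaps to the Rpsa transcript Rpsa-204, with 99.3% identical bases. It differs from this transcript by C25A, T210C, C219T, C345G, C696T and G858A, where the Rpsa base stands first, the position is counted from 1 at the 5′ end of Rpsa-ps10, and the base of Rpsa-ps10 follows. The stretch of 60 bases with the most differences, positions 160 to 219, is shown to make visible how little separates the loci, with differing bases in capitals. On GRCm38 it lies at chr3:150073324-150073383 on the minus strand, and in Rpsa-204 at positions 806 to 865.
Rpsa-ps10: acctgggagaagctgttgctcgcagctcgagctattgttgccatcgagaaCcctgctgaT
Rpsa: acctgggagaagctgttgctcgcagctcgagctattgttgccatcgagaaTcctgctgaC
Of 811 windows of 75 bases (the read length of the study) along Rpsa-ps10, 524 (64.6%) were found letter for letter in an Rpsa transcript. A single read of such a window cannot be assigned to 1 locus by sequence, so the counts of Rpsa-ps10 and Rpsa are uncertain against each other.

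**Figure D1:**
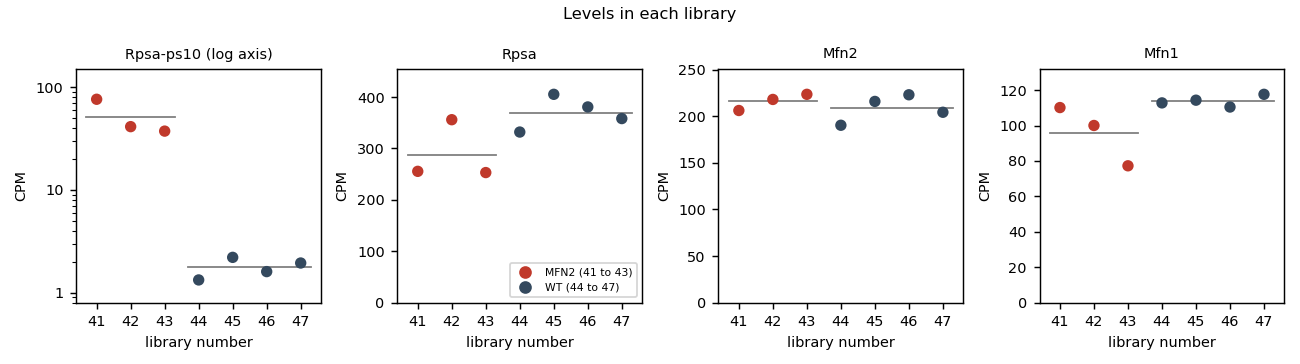
Levels (CPM) of Rpsa-ps10 on a log axis, and of Rpsa, Mfn2 and Mfn1 on linear axes from 0, with 1 point per library and grey lines at the group means. Rpsa-ps10 lies between 37.5 and 76.6 CPM in the 3 MFN2 libraries and between 1.33 and 2.21 CPM in the 4 WT libraries, while the Mfn2 points of the groups mix.

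In the MFN2 libraries with higher numbers, 72 to 76, the raw counts of Rpsa-ps10 were 1296, 652, 750, 994 and 67. In the libraries of the comparison they were 2055, 1101 and 795 in MFN2 and 31, 48, 37 and 38 in WT mice. Library 76, labelled CMT2A, thus stood nearer to the WT libraries than to the other MFN2 libraries for this locus.

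Mouse Mfn2 itself did not separate the genotypes. Its level was 206, 218 and 224 CPM in libraries 41, 42 and 43 and 191, 216, 223 and 204 CPM in WT libraries 44 to 47. The difference in mean log2 CPM was 0.053, and a two-sided exact permutation test over the 35 regroupings gave p = 0.457, where the smallest p possible is 0.0286. Without library 43 the difference was 0.028 (exact permutation over 15 regroupings, p = 0.800), a design that cannot go below 0.0667. Mfn1, the homologue, was counted at 110.1, 100.02 and 77.2 CPM in libraries 41, 42 and 43 against 112.8, 114.3, 110.5 and 117.6 CPM in WT libraries. All 3 MFN2 libraries lay below the WT libraries, library 41 by less than 1 CPM, and the log2 fold change was -0.25 (SE 0.12; FDR = 0.622, edgeR) with library 43 and -0.11 (SE 0.07; FDR = 0.907) without it. Endogenous Eno2, the neuronal enolase whose rat promoter drives the transgene, was counted at 537, 580 and 477 CPM against 573, 578, 615 and 524 CPM, with overlapping groups.

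Library 43 stood apart from the other 6 before any comparison of genotypes. On the first principal component of log2 CPM, which held 58.6% of the variance, library 43 lay at 87.2 and the others between -22.3 and -3.02. Forebrain transcripts were abundant in it. Tbr1, a transcription factor of cortical projection neurons, reached 90.2 CPM and was at most 0.79 CPM elsewhere. Slc17a7, the vesicular glutamate transporter of cortical neurons, was 1037 CPM in library 43 and between 0.09 and 13.3 CPM elsewhere. Over all 35 forebrain genes of the list the summed level was 7318 CPM in library 43 and between 664 and 762 CPM in the other libraries, with Camk2a its most abundant member at 1930 CPM.

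Genes that mark the cord were low in the same library. The 25 Hox genes, which record position along the body axis and are silent in the forebrain, summed to 87.9 CPM in library 43 and to between 489 and 619 CPM in the others. Chat, which makes acetylcholine in motor neurons, was 5.23 CPM against 16.1 to 34.6 CPM, and Slc6a5, the glycine transporter of inhibitory interneurons, was 76.6 CPM against 327 to 439 CPM. Myelin genes summed to 9881 CPM against 24606 to 37570 CPM. Prx, a scaffold protein of myelinating Schwann cells, was 35.7 CPM against at most 1.20 CPM, whereas the sensory neuron markers Scn10a and Avil stayed under 0.5 CPM in every library. The spinal cord label therefore held for 6 libraries by these markers. In library 43 forebrain transcripts were abundant while the Hox genes, Chat and Slc6a5 were far lower, though present. The share of cord RNA in library 43 was not estimated. Contrasts below are given with library 43, and the main ones also without it.

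The other libraries differed among themselves as well. Y-linked transcripts (Ddx3y, Uty, Kdm5d and Eif2s3y) were present in MFN2 libraries 41 and 43 and in WT library 44, and Xist, transcribed from the inactive X chromosome, was between 252 and 323 CPM in MFN2 library 42 and WT libraries 45, 46 and 47. The sexes were thus unequally mixed, 2 of 3 MFN2 and 1 of 4 WT mice carrying Y transcripts. Hoxd10, a gene of the lower lumbar cord, was 31.1 CPM in library 42 and 22.8 CPM in library 44 but at most 6.80 CPM in the others, and Hoxd11 was 16.2 and 14.5 CPM in these 2 libraries and at most 2.03 CPM elsewhere. Libraries 42 and 44 are of different genotypes. Skeletal muscle genes summed to 471 and 939 CPM in WT libraries 46 and 47 and to between 118 and 250 CPM in the others. Among their defining markers, Acta1 was 16.1 and 54.1 CPM and Ckm 5.50 and 12.3 CPM in libraries 46 and 47, while Ckm was under 1 CPM elsewhere. The fibroblast gene Col1a1 was 262 CPM in WT library 44 and between 37.9 and 146 CPM in the others. The part of these differences in the results below was not tested beyond the values given. In bulk RNA, fewer cells of a type and less RNA per cell cannot be told apart.

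**Figure D2:**
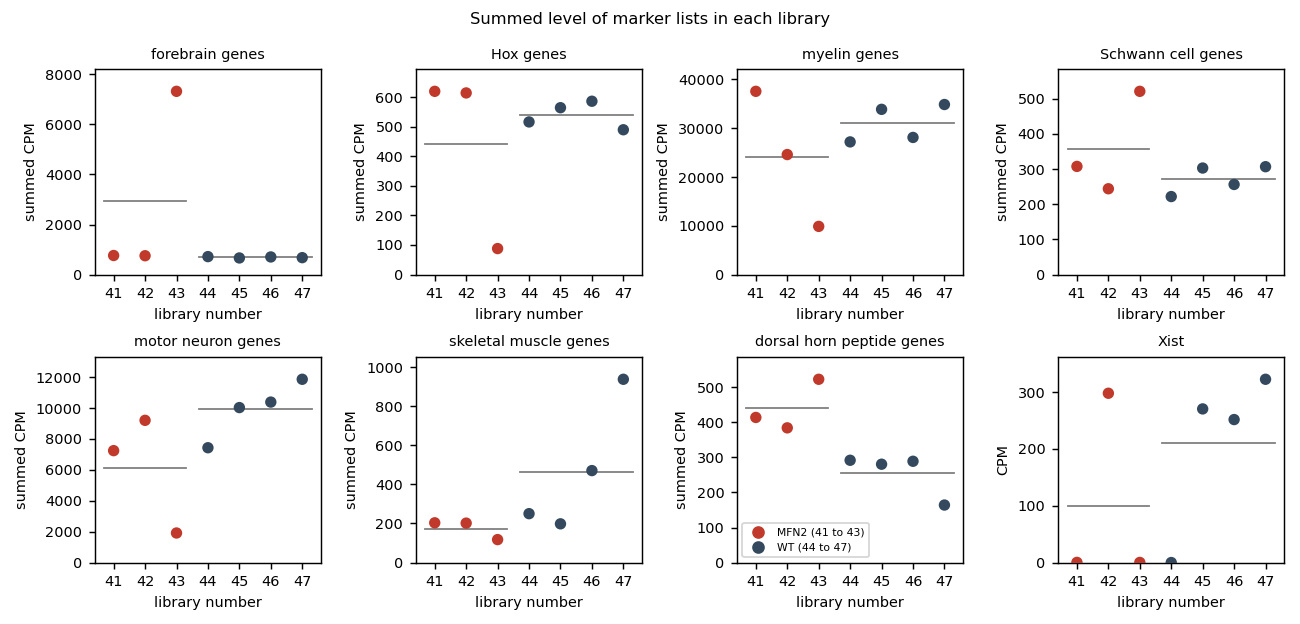
Summed level (CPM) of 7 marker lists, and the level of Xist, in each of the 7 libraries, with grey lines at the group means and axes from 0. Library 43 holds 7318 CPM of forebrain genes and 87.9 CPM of Hox genes, WT libraries 46 and 47 hold the most muscle transcripts, and Xist is present in 4 libraries.

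Across all 15200 genes, 1083 had an unadjusted p under 0.05 with library 43 (7.12% of the genes tested), 787 higher and 296 lower in MFN2 mice. Without library 43 there were 873 (5.74%), 515 higher and 358 lower, and 524 genes were in both. Library 43 was the highest or lowest of the 7 libraries for 68.0% of all genes and for 86.6% of the 1083. Levels of 778 genes were higher in all 3 MFN2 libraries than in all 4 WT libraries (5.12%), and 574 were lower in all 3 (3.78%). With 41 and 42 alone, 1180 genes lay above all WT libraries (7.76%) and 1061 below (6.98%). The split between directions depended on the scaling. Higher genes made up 57.5% of those that did not overlap under TMM and 41.1% under upper-quartile scaling with library 43, and 52.7% and 41.5% without it. The median log2 fold change over all genes moved from -0.00 under TMM to -0.04 under upper-quartile scaling with library 43.

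Besides Rpsa-ps10, the genes with the lowest p whose groups did not overlap are described next, first those higher in MFN2 mice. None passed the threshold with the edgeR quasi-likelihood test. Those chosen in the fit with library 43 each had an FDR of 0.622 there, and the lowest FDR among the higher genes without it was 0.450, for Synpr. Snx4, a sorting nexin of endosomal recycling and autophagy, was 46.6, 45.7 and 45.04 CPM in libraries 41, 42 and 43. Its WT levels were 37.5, 36.4, 37.0 and 36.3 CPM. Its spread within either group was under 1 CPM (SD 0.808, n = 3, and 0.544, n = 4), and its log2 fold change was 0.32 (SE 0.07) with and 0.33 (SE 0.07) without library 43. DESeq2 called it with library 43 (adjusted p = 0.0490). Snx4 lay in a narrow band in each genotype, and library 43 lay beside the other MFN2 libraries.

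Zscan18, a zinc-finger gene, was 15.996, 15.5 and 18.5 CPM against 12.8, 10.3, 10.5 and 9.76 CPM in WT, a log2 fold change of 0.62 (SE 0.13) with and 0.54 (SE 0.13) without library 43. The brain-expressed X-linked genes Bex1 and Bex4, small adaptor proteins of neurons, were higher in all 3 MFN2 libraries. Bex1 was 41.9, 53.2 and 56.6 CPM against 29.5, 34.4, 33.0 and 21.5 CPM, a log2 fold change of 0.77 (SE 0.18) and 0.69 (SE 0.18) without library 43. Bex4 was 9.32, 9.07 and 13.8 CPM against 5.74, 6.57, 5.28 and 3.99 CPM, with log2 fold changes of 0.99 and 0.77. Ephb6, an ephrin receptor without kinase activity, was 54.7, 52.4 and 59.5 CPM against 41.1, 45.03, 46.2 and 37.9 CPM, with log2 fold changes of 0.38 and 0.34. The cell adhesion gene Amigo2, Cep112 and Dcaf12l1 also lay above every WT library, with log2 fold changes of 0.50, 0.84 and 0.49 with and 0.46, 0.65 and 0.36 without library 43.

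Several higher genes were also abundant in library 43 beyond what the other MFN2 libraries showed. Col25a1, a transmembrane collagen of neurons needed for motor innervation of muscle, was 43.3, 49.4 and 69.8 CPM against 31.8, 35.2, 33.1 and 30.5 CPM in WT. Its log2 fold change was 0.73 (SE 0.16) with and 0.51 (SE 0.09) without library 43. Necab1, a calcium-binding protein of dorsal horn excitatory neurons, was 41.6, 44.8 and 81.3 CPM against 31.3, 25.9, 29.4 and 21.1 CPM. In both genes the values of 41 and 42 alone already exceeded those of every WT library. Synpr, a synaptic vesicle protein, was 21.4, 21.6 and 51.9 CPM against 15.3, 13.8, 14.8 and 13.1 CPM, with log2 fold changes of 1.15 (SE 0.31) and 0.60 (SE 0.10). Without library 43, DESeq2 called Col25a1, Necab1 and Synpr (adjusted p of 0.0207, 0.0207 and 0.0210), as did the edgeR likelihood ratio test (adjusted p of 0.0182 for each). Nrgn, a calmodulin-binding protein of forebrain neurons, moved most between the fits, from 3.72 (SE 1.10) with to 0.68 (SE 0.15) without library 43, because it was 553 CPM there and 24.8 and 23.9 CPM in libraries 41 and 42, against 11.4 to 17.6 CPM in WT. Gng4, a G-protein subunit, and Stk32c, a kinase, had log2 fold changes of 0.74 and 1.21 with and 0.44 and 0.50 without library 43.

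Some genes separated the groups only once library 43 was left out, which is a description of that library and not a test. Hoxb9 was 59.1 and 52.7 CPM in libraries 41 and 42 and between 30.3 and 42.3 CPM in WT, but 7.97 CPM in library 43, and its log2 fold change was 0.07 (SE 0.56) with and 0.55 (SE 0.12) without that library. Dgkk, an X-linked diacylglycerol kinase, was 26.4 and 32.9 CPM against 18.9 to 22.3 CPM, and 6.70 CPM in library 43. DESeq2 called Dgkk without that library (adjusted p = 0.0486). The processed pseudogene Gm11512 was 68.1 and 71.98 CPM against 48.1 to 55.3 CPM, and 52.5 CPM in library 43, and DESeq2 and the edgeR likelihood ratio test called it without library 43. The zinc-finger gene Zfp949 lay above WT in all 3 MFN2 libraries, at 20.1, 19.4 and 16.1 CPM against 11.7 to 15.7 CPM.

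On the lower side, Acaa1a, a peroxisomal thiolase that completes the beta-oxidation of very long chain fatty acids, had the next lowest p after Rpsa-ps10 in the fit with library 43. It was 19.9, 26.0 and 20.8 CPM in libraries 41, 42 and 43 and 33.5, 37.2, 35.8 and 42.2 CPM in WT. No MFN2 library came near the WT range. The mean was 22.3 ± 3.25 CPM (SD, n = 3) against 37.2 ± 3.68 CPM (SD, n = 4), with a log2 fold change of -0.74 (SE 0.13; FDR = 0.622, edgeR) with and -0.69 (SE 0.13; FDR = 0.735) without library 43. DESeq2 called it both with (adjusted p = 0.00451) and without library 43 (adjusted p = 0.00519), and the edgeR likelihood ratio test called it without library 43 (adjusted p = 0.0182). Acaa1a lies on chromosome 9, and its start is 788 kb before that of Rpsa. Among the 18 tested genes from Myd88 to Entpd3 (119335934 to 120568327), a window chosen after its values were seen, 4 were lower in all 3 MFN2 libraries (Myd88, Acaa1a, Eif1b and Entpd3) and 0 were higher (4 and 1 without library 43), beside 3.78% of all genes lower (6.98% without library 43). The genes at both ends of the window are themselves among the 4, so the choice of its bounds raises the count. Eif1b, a relative of a translation initiation factor, was 61.9, 62.3 and 57.02 CPM against 77.6, 68.1, 73.9 and 74.4 CPM, and Mobp, a myelin gene beside Rpsa, overlapped between the groups. The log2 fold change of Eif1b was -0.28 with and -0.24 without library 43.

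Other lower genes included Atp5e and Atp5j2, which encode subunits of ATP synthase. Atp5e was 24.4, 23.4 and 24.5 CPM against 30.0, 29.5, 30.3 and 27.6 CPM, a log2 fold change of -0.28 (SE 0.08) with and -0.29 (SE 0.09) without library 43. Atp5j2 was 57.05, 56.2 and 53.7 CPM against 66.5, 62.3, 70.5 and 69.3 CPM, with log2 fold changes of -0.27 and -0.24. Cmc2, a protein of cytochrome c oxidase assembly, was 9.47, 9.79 and 8.44 CPM against 11.96 to 13.6 CPM, with log2 fold changes of -0.44 and -0.37. For these 3 genes library 43 lay close to libraries 41 and 42.

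Slc16a1, the monocarboxylate transporter that supplies lactate to axons, was 85.1, 72.4 and 67.9 CPM against 103, 92.5, 92.5 and 99.6 CPM, a log2 fold change of -0.37 (SE 0.10) with and -0.30 (SE 0.09) without library 43. Cops9, a subunit of the COP9 signalosome, was 14.99, 13.6 and 14.6 CPM against 17.4 to 19.7 CPM, with log2 fold changes of -0.39 and -0.40. Scrt2, a neuronal zinc-finger repressor, was 10.2, 10.1 and 10.4 CPM against 13.0 to 14.6 CPM, and Vav3, a guanine nucleotide exchange factor, was 16.2, 15.8 and 16.9 CPM against 19.5 to 23.1 CPM. The log2 fold change was -0.41 in either fit for Scrt2, and -0.37 with and -0.39 without library 43 for Vav3. P2rx6, an ATP-gated channel, had a log2 fold change of -0.92 (SE 0.26) with and -0.66 (SE 0.18) without library 43, on levels of 5.33, 4.97 and 2.59 CPM against 7.03 to 9.66 CPM.

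Genes that lay below WT in libraries 41 and 42 but not in library 43 included the insulin-like growth factor binding proteins Igfbp2 and Igfbp4. Igfbp4 was 21.3 and 30.7 CPM against 36.9, 40.1, 38.6 and 45.4 CPM, but 57.7 CPM in library 43, and its log2 fold change was -0.14 (SE 0.31) with and -0.62 (SE 0.15) without that library. DESeq2 called Igfbp4 without library 43 (adjusted p = 0.0466). The collagen gene Col5a2 and the initiation factor gene Eif3j1 had log2 fold changes of -0.45 and -0.48 without library 43. Pofut1, which adds fucose to Notch, and Entpd3, an ectonucleotidase, lay below WT in all 3 MFN2 libraries. Entpd3 was 24.2, 27.1 and 7.31 CPM against 31.5 to 41.3 CPM, and Pofut1 was 13.6, 13.8 and 17.5 CPM against 18.4 to 21.9 CPM. The log2 fold change of Entpd3 was -0.87 (SE 0.40) with and -0.47 (SE 0.12) without library 43.

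Another lower locus without library 43 was Mir6236, annotated as a microRNA at chr9:110281287-110281409 (plus strand). The mature RNA is given to show what the annotation stands for, with its seed (bases 2 to 8) in capitals, as listed by RefSeq for GRCm38.p6 at chr9:110281353-110281371.
miR-6236: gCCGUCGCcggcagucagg
Counts from a library of long RNA cannot be read as the mature form. The locus was counted at 270 and 266 CPM in libraries 41 and 42, at 693 CPM in library 43, and at 832, 561, 738 and 554 CPM in WT libraries. Library 43 thus lay within the WT range. The log2 fold change was -0.71 (SE 0.37) with and -1.32 (SE 0.18; FDR = 0.428, edgeR) without library 43, and both DESeq2 (adjusted p = 3.81e-15) and the edgeR likelihood ratio test (adjusted p = 3.05e-08) called it without that library.

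**Figure D3:**
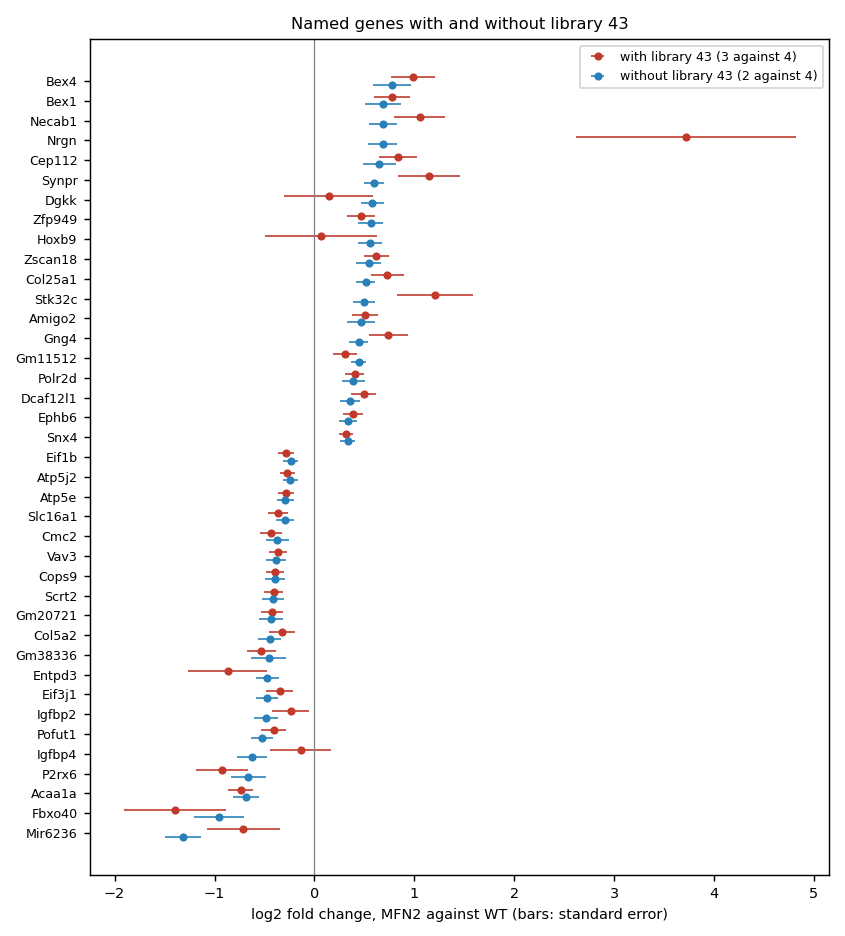
Log2 fold change (MFN2 against WT) of the named genes other than Rpsa-ps10 with library 43 (red) and without it (blue), with bars for the standard error. Snx4, Acaa1a and Atp5e hardly move between the fits, whereas Nrgn goes from 3.72 to 0.68 and Mir6236 from -0.71 to -1.32.

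The genes closest to MFN2 function were examined as lists. Their counts without overlap are to be read against all 15200 genes, of which 5.12% were higher and 3.78% lower with library 43 and 7.76% higher and 6.98% lower without it, with medians of -0.00 in both fits. Of the 22 genes of mitochondrial fusion and fission, 3 were higher and 2 lower without overlap (3 higher and 3 lower without library 43), and the median log2 fold change was -0.03 (-0.02 without library 43). None passed the FDR threshold in either fit, and 1 had an unadjusted p under 0.05 with library 43 and 0 without it, beside 7.12% and 5.74% of all genes. This 1 gene was Gdap1l1, a relative of the neuropathy gene Gdap1, at 50.4, 46.8 and 57.9 CPM against 42.1, 43.97, 46.3 and 39.0 CPM. Mtfp1, an inner membrane protein that promotes fission, was 19.4, 19.7 and 35.6 CPM against 14.9 to 19.2 CPM. Phb, an inner membrane scaffold, lay lower at 40.2, 42.01 and 28.3 CPM against 43.1 to 49.7 CPM. Opa1, which fuses the inner membrane, overlapped between the groups at 229, 238 and 224 CPM against 238, 235, 253 and 261 CPM. Under upper-quartile scaling the list had 1 higher and 3 lower genes with library 43.

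Of the 24 genes of axonal mitochondrial transport, none lay outside the WT range in all MFN2 libraries of either fit. The kinesin heavy chain Kif5a was 1850, 2206 and 2714 CPM against 1586, 2138, 2043 and 1952 CPM, and Kif5b was 718, 756 and 397 CPM against 658 to 899 CPM. Snph, which anchors mitochondria in axons, was 187, 202 and 282 CPM against 182 to 207 CPM. The median of the list was -0.04 with and -0.00 without library 43.

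Mitophagy, autophagy and lysosome genes (29 tested) had 1 member higher and 1 lower without overlap (1 and 3 without library 43). Wipi2, which recruits the conjugation machinery to the growing autophagosome, was 91.1, 89.1 and 99.2 CPM against 82.4 to 87.5 CPM, and Gabarap, an LC3 relative on the autophagosome, was 52.8, 49.6 and 48.5 CPM against 53.1 to 54.1 CPM. Sqstm1, the cargo receptor p62, was 278, 302 and 266 CPM against 247, 293, 303 and 281 CPM. The differences of Wipi2 and Gabarap were small (log2 fold changes of 0.13 and -0.09), and the groups overlapped for Sqstm1. The median of the list was -0.09 with and -0.02 without library 43.

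The 75 nuclear genes of oxidative phosphorylation had 6 lower and 0 higher genes without overlap, beside 3.78% of all genes lower. Without library 43 there were 13 lower and 3 higher, beside 6.98% and 7.76% of all genes. The median was -0.11 with and -0.04 without library 43, none passed the FDR threshold, and 3 and 9 genes had an unadjusted p under 0.05, beside 7.12% and 5.74% of all genes. Under upper-quartile scaling the lower genes numbered 17 with and 21 without library 43, where those of all 15200 genes numbered 807 and 1312. Besides Atp5e and Atp5j2, Cox5a, a subunit of cytochrome c oxidase, was between 53.9 and 77.7 CPM in the MFN2 libraries, lowest in library 43, against 82.7 to 89.5 CPM. Ndufs8 of complex I was 47.1, 44.9 and 38.8 CPM against 48.7 to 52.4 CPM. The most abundant members, Atp5b and Atp5a1, overlapped between the groups, with log2 fold changes of -0.10 and -0.06 (-0.04 and 0.01 without library 43). Genes of the mitochondrial chromosome numbered 0 among those counted.

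Import machinery, contacts between the endoplasmic reticulum and mitochondria, and targets of the integrated stress response held no gene past the FDR threshold. Their medians were -0.02, -0.02 and -0.05 with and -0.00, 0.00 and -0.00 without library 43. Of the 27 import genes 1 was higher without overlap, the motor subunit Pam16 (10.4, 11.3 and 10.8 CPM against 9.56 to 10.1 CPM), and Tomm20, the outer membrane receptor, was 171, 185 and 176 CPM against 163 to 181 CPM. Of the 20 contact genes 1 was lower (3 higher and 2 lower without library 43), Pdzd8, a tether, with a log2 fold change of -0.12. Among 22 stress response targets 0 lay outside the WT range with library 43 and 2 without it. These were Chac1, which degrades glutathione (6.71 and 6.14 CPM against 4.37 to 4.96 CPM), and Sesn2 (13.9 and 14.7 CPM against 12.4 to 13.7 CPM). Among 44 tested genes of inherited neuropathies, 1 was higher without overlap, Mme, a neutral endopeptidase, at 18.6, 16.3 and 15.8 CPM against 14.96, 12.04, 14.2 and 8.54 CPM.

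Motor neuron genes were lower in MFN2 libraries by the median, most of all in library 43. The 22 genes summed to 7243, 9205 and 1912 CPM in libraries 41, 42 and 43 and to 7431, 10030, 10387 and 11863 CPM in WT libraries, and the median log2 fold change was -0.75 with and -0.31 without library 43. Library 42 lay above WT library 44, so that the sums overlapped. Of the 22 genes, 3 were lower without overlap in either fit (2 by library size alone), beside 3.78% of all genes with and 6.98% without library 43. These were Isl2, a transcription factor of motor neurons (0.56, 2.00 and 0.24 CPM against 2.19 to 4.09 CPM), Mmp9, a protease of fast motor neurons (8.28, 8.39 and 3.87 CPM against 9.69 to 13.4 CPM), and Esrrg, a nuclear receptor (71.8, 77.5 and 38.7 CPM against 78.2 to 88.9 CPM). Chat was 16.6, 17.2 and 5.23 CPM against 16.1, 21.0, 20.9 and 34.6 CPM. The neurofilament genes Nefl and Nefm overlapped, with log2 fold changes of -0.20 and -0.30 without library 43. None of the 22 passed the FDR threshold, and WT library 47, which held the most muscle transcripts, was the highest for Chat, Isl2 and Mmp9.

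Genes of dorsal horn peptides had a higher summed level in each MFN2 library than in each WT library. In library 43 this rested on Cck, Sst and Npy, and single genes of the list were low there. The dorsal horn is the sensory part of the cord, where small interneurons use neuropeptides beside GABA, glycine or glutamate. Of the 16 tested genes, 5 were higher without overlap and 0 lower, beside 5.12% of all genes higher, and without library 43 there were 11 higher and 0 lower, beside 7.76%. These counts were the same under upper-quartile, RLE and library-size scaling. The summed level of the list was 414, 385 and 523 CPM in libraries 41, 42 and 43 and 292, 281, 289 and 164 CPM in WT libraries. Each MFN2 sum lay above each WT sum. In library 43 most of the sum came from Cck (162 CPM), Sst (151 CPM) and Npy (23.1 CPM). Without these genes the sum of library 43 lay below those of WT libraries 44, 45 and 46 and above that of WT library 47 only. Those of libraries 41 and 42 stayed above every WT library. Within libraries with Xist the full sums were 385 CPM in library 42 against 281, 289 and 164 CPM. Within those with Y transcripts they were 414 CPM in library 41 against 292 CPM in library 44. This order follows from the separation of all the sums and is no test of sex. None of its genes passed the FDR threshold, 5 had an unadjusted p under 0.05 with and 9 without library 43, beside 7.12% and 5.74% of all genes, and 3 further genes of the list were under the filter.

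Nppc, the precursor of C-type natriuretic peptide, was 6.00, 5.27 and 5.61 CPM against 4.24, 3.91, 3.46 and 3.27 CPM, a log2 fold change of 0.60 (SE 0.15) with and 0.60 (SE 0.19) without library 43. Npy, an inhibitory peptide, was 5.74, 5.84 and 23.1 CPM against 4.59, 3.08, 3.03 and 2.10 CPM, with log2 fold changes of 1.84 (SE 0.54) and 0.86 (SE 0.27). Sst, the precursor of somatostatin and a marker of excitatory dorsal horn cells, was 87.1, 117 and 151 CPM against 72.5, 64.7, 64.8 and 29.3 CPM. Npy and Sst are also peptides of cortical interneurons, and both were highest in library 43, whereas Nppc was not. Adcyap1 was 18.8, 15.8 and 23.8 CPM against 14.3, 11.1, 11.95 and 7.26 CPM, and Cck was 19.2, 21.5 and 162 CPM against 14.5 to 16.7 CPM. Penk, the most abundant member by count and the precursor of enkephalin, was 179 and 144 CPM in libraries 41 and 42 against 119, 121, 125 and 73.3 CPM, but 94.3 CPM in library 43. In library 43, Gal (0.47 CPM against 1.94 to 3.81 CPM), Nts (3.91 CPM against 6.80 to 12.04 CPM) and Nmu lay below every WT library. Penk, Tac2, Nts, Gal, Cartpt and Pnoc exceeded the WT range only without that library.

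**Figure D4:**
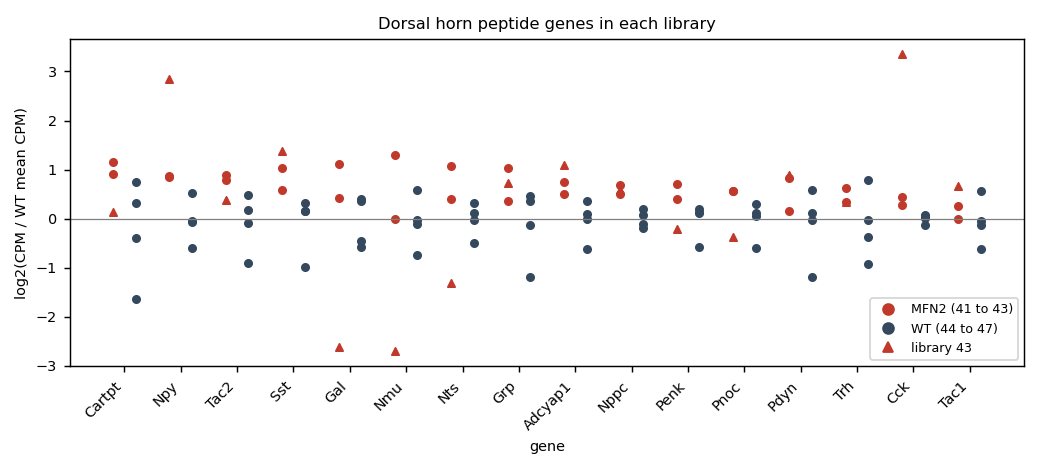
Log2 ratio of the level in each library to the WT mean for the 16 tested dorsal horn peptide genes, with MFN2 libraries in red (library 43 as a triangle) and WT libraries in blue, ordered by the log2 fold change without library 43. For 11 genes both red circles lie above all 4 blue points.

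Transmitter genes of the cord went in both directions. Gad1, which makes GABA, was 144, 146 and 162 CPM against 123, 108, 117 and 85.8 CPM, a log2 fold change of 0.47 (SE 0.13) with and 0.42 (SE 0.13) without library 43. Among genes of glycine transmission, Slc6a5, Glra1 and the receptor scaffold gene Gphn lay below the WT range in all MFN2 libraries. The receptor subunit genes Glra2, Glra3 and Glrb did not. Glra2 was 8.20, 10.2 and 16.2 CPM against 4.70 to 8.66 CPM, and Glra3 was 32.4, 30.9 and 20.3 CPM against 13.9 to 28.4 CPM. Glrb was 215, 217 and 155 CPM against 208 to 252 CPM. Slc6a5 was 327, 366 and 76.6 CPM against 439, 375, 418 and 410 CPM, and Glra1, the adult glycine receptor subunit, was 224, 253 and 45.98 CPM against 276, 267, 284 and 287 CPM. The log2 fold changes of Slc6a5 and Glra1 were -0.68 and -0.68 with and -0.24 and -0.22 without library 43, so that the differences were larger with library 43. Of the 26 tested transmission genes, 1 was higher and 3 lower without overlap, and without library 43 2 were higher and 3 lower, beside 5.12% and 3.78% of all genes with and 7.76% and 6.98% without that library. By library size alone there was 1 lower gene in either fit. Grin2b and Gria2, glutamate receptor subunits, were 1475 and 694 CPM in library 43 and at most 215 and 214 CPM elsewhere.

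Of 17 tested genes of neuronal injury and regeneration, 5 were higher without overlap with library 43 and 7 without it, and 0 were lower, beside 5.12% and 7.76% of all genes higher. The median log2 fold change of the list was 0.35 with and 0.38 without library 43. Npy, Adcyap1, Gal and Nts are shared with the peptide list. The others were Flrt3, an adhesion protein (19.2, 17.2 and 27.1 CPM against 14.96, 12.3, 15.5 and 12.2 CPM), Gap43, a growth cone protein (78.8, 83.7 and 191 CPM against 52.1, 70.7, 68.1 and 49.0 CPM), and Sox11, a transcription factor of immature and regenerating neurons (19.8, 16.3 and 51.8 CPM against 13.2, 15.8, 13.9 and 11.9 CPM). Library 43 was the highest for all 3. Without it their log2 fold changes were 0.41 (SE 0.13), 0.44 (SE 0.15) and 0.40 (SE 0.13), and the most abundant members Stmn2 and Stmn4 overlapped between the groups. Jun overlapped too, at 82.1, 78.8 and 65.9 CPM against 78.1 to 95.2 CPM, and Atf3, Sprr1a and Ankrd1 of the list were under the filter. Of the 17 genes, 10 had a log2 fold change above 0 and 7 below it with library 43 (12 and 5 without it). Calb1 and Zic1, listed with the cerebellum and hindbrain but also expressed in dorsal cord neurons, were higher in all MFN2 libraries, Calb1 at 38.5, 36.1 and 97.6 CPM against 21.5 to 30.2 CPM and Zic1 at 34.7, 39.3 and 60.6 CPM against 17.5 to 30.6 CPM.

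Counts of the glial, vascular and fibroblast lists are read against the same shares, 5.12% of all genes higher and 3.78% lower with library 43, and 7.76% and 6.98% without it. No astrocyte gene of 22 and no mature myelin gene of 24 lay outside the WT range in all 3 MFN2 libraries, and their medians went from -0.24 and -0.40 with library 43 to 0.02 and -0.02 without it, where 1 astrocyte gene and 0 myelin genes lay above the WT range. Gfap, the astrocyte filament, was 2934, 1205 and 277 CPM against 1520 to 2695 CPM. It lay above the WT range in library 41 and below it in libraries 42 and 43. Of 24 tested microglial genes 1 was lower without overlap, Spp1, at 47.02, 58.8 and 9.95 CPM against 62.2, 69.1, 88.3 and 91.1 CPM. Spp1 is also expressed by large motor neurons. Of 24 vascular genes 1 was lower, the pericyte channel gene Kcnj8 (2.796, 2.41 and 2.78 CPM against 3.09 to 6.10 CPM), and of 18 genes of oligodendrocyte precursors 1 was higher, Cspg5 (88.4, 93.1 and 218 CPM against 72.2 to 84.8 CPM). Without library 43 the microglial, vascular and precursor lists again had 1 lower, 1 lower and 1 higher gene. Their medians were 0.15, -0.16 and -0.06 with and 0.06, -0.19 and -0.02 without that library. Fibroblast genes had a median of 0.24 with and -0.47 without library 43, with 1 and 3 of 16 lower without overlap, beside 3.78% and 6.98% of all genes.

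**Figure D5:**
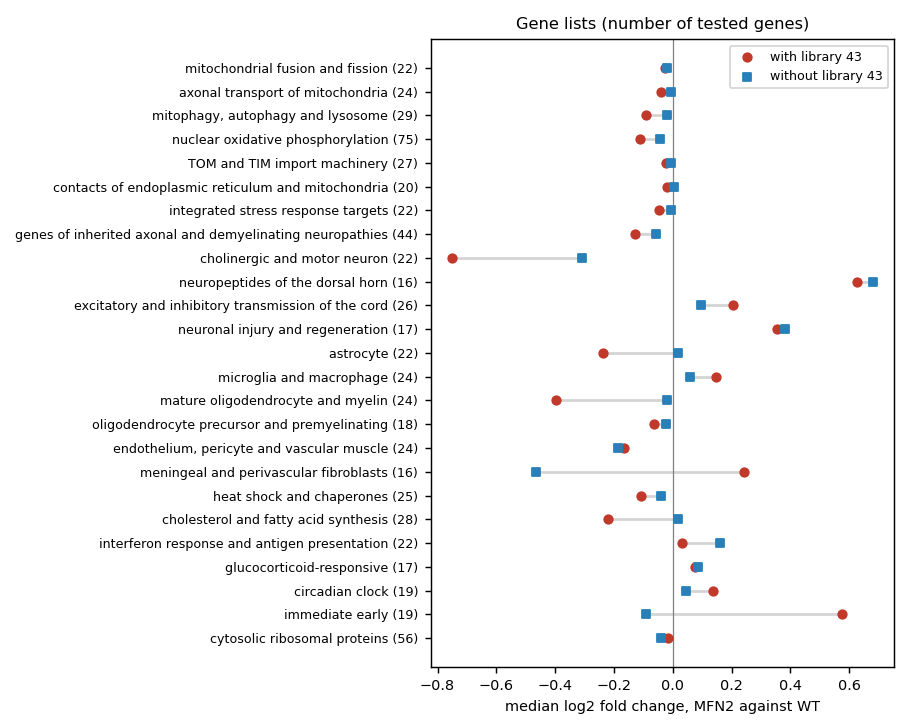
Median log2 fold change (MFN2 against WT) over the tested genes of each list with library 43 (red circles) and without it (blue squares), with the number of tested genes in brackets. Dorsal horn peptides stay at 0.62 and 0.68, while motor neuron genes go from -0.75 to -0.31, immediate early genes from 0.57 to -0.09 and fibroblast genes from 0.24 to -0.47.

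Most general cell state lists followed library 43 or stayed near 0, but the interferon median was 0.03 with and 0.16 without that library. Immediate early genes, which neurons switch on with activity, summed to 647 CPM in library 43 and to between 228 and 258 CPM in the others. Egr1 was 21.1, 15.7 and 124 CPM against 13.1 to 17.2 CPM. Heat shock, cholesterol synthesis, interferon and circadian lists had 0 genes outside the WT range in all 3 MFN2 libraries, with medians of -0.11, -0.22, 0.03 and 0.14 (-0.04, 0.02, 0.16 and 0.04 without library 43). Of 17 glucocorticoid-responsive genes 1 was lower (1 higher and 2 lower without library 43), beside 3.78% of all genes lower (7.76% higher and 6.98% lower without library 43). The 1 gene was Tsc22d3 (97.7, 98.1 and 45.2 CPM against 100.5 to 105.5 CPM). Of 56 cytosolic ribosomal protein genes 1 was higher and 2 were lower, beside 5.12% and 3.78% of all genes, with a median of -0.01. Without library 43, 2 were higher and 7 lower, beside 7.76% and 6.98% of all genes, the median was -0.04, and 7 had an unadjusted p under 0.05 against 1 with it, beside 5.74% and 7.12% of all genes. Rps7 was 198, 187 and 182 CPM against 139, 174, 177 and 147 CPM.

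The 5 MFN2 libraries numbered 72 to 76 were set against the same 4 WT libraries over the same genes, and 3566 genes passed the FDR threshold there (23.5% of the genes tested), 1727 higher and 1839 lower. This comparison shares the WT libraries with the one above, and library number and genotype cannot be told apart in it. The 7 tested sex-linked genes had a median log2 fold change of -8.93 there, and the part of sex in these calls was not tested. Values of both signs follow for genes named above. Rpsa-ps10 had a log2 fold change of 4.18 (SE 0.80; FDR = 0.0106, edgeR), Snx4 of 0.39 (SE 0.04; FDR = 0.000311), Acaa1a of -0.62 (SE 0.18; FDR = 0.0331) and Cops9 of -0.68 (SE 0.08; FDR = 0.000317). Those of Col25a1, Necab1 and Synpr were 0.34, 0.59 and 0.46, those of Atp5e and Atp5j2 were -0.31 and -0.29, and those of Nppc and Sst, which did not pass the threshold, were 0.30 and 0.64. Other genes named above had values near 0 or of the opposite sign. Cep112 had -0.28, Ephb6 0.03, Dcaf12l1 0.07 and Stk32c -0.01, none past the threshold, against 0.84, 0.38, 0.49 and 1.21 with libraries 41 to 43. Mfn2 had -0.09 (FDR = 0.302) and Mfn1 -0.05 (FDR = 0.543). Median values were 0.42 for dorsal horn peptides, -0.11 for oxidative phosphorylation, 0.00 for injury genes and 0.01 for motor neuron genes, against 0.62, -0.11, 0.35 and -0.75 in libraries 41 to 43.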

How the data were processed

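The authors trimmed adapters from paired-end reads of 75 bases, aligned the reads to GRCm38 (GRCm38.p6 in the submitters' processing notes, which also name bcl2fastq, STAR and edgeR) and deposited raw counts per Ensembl gene, 1 library per mouse. The counting tool and strand setting are not given in the sources used here, so counts of overlapping, antisense and duplicated genes are uncertain. Symbols from GENCODE M21 matched 49289 of 49548 genes.

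Counts of libraries 41 to 47 were filtered (above 1 CPM in at least 3), given TMM factors and fitted in R 4.3.3 by edgeR 4.0.16 ( quasi-likelihood test, legacy form, robust, FDR at most 0.05), with and without library 43. Each SE comes from the F statistic. A prior count of 2 entered log2 CPM values. All 9 pairs of libraries within a genotype differed beyond counting noise, and p-values measure the spread between these mice. DESeq2 1.42.0 and limma 3.58.1 served as alternatives. Sequences came from GENCODE M21 transcripts and RefSeq (Biopython 1.88 alignment).

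Named genes were Mfn2, Mfn1, Eno2, genes past the threshold, the 12 higher and 12 lower genes of lowest p without overlap and with a mean of at least 5 CPM in each fit (not all are printed), and in each list the 4 of lowest p and the 2 most abundant. Genes outside this rule (among them Tbr1, Prx, Ckm, Scn10a and Avil, fixed as markers, and other list members outside the WT range) were named after their values were seen. Members and lists were chosen with earlier results of these data known.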

Additional observations from a re-analysis of the deposited data

Results flagged for a closer look

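Among 78 sets of WT values examined for a library far from the other 3, 4 were set aside, where chance gives about 1 in 20. Gng4 was 19.3 CPM in WT library 47 and between 22.1 and 22.2 CPM in the other WT libraries. Stk32c was 19.3 CPM in WT library 47 against 23.9 to 24.2 CPM. The summed level of dorsal horn peptide genes was 164 CPM in WT library 47 against 281 to 292 CPM, so the WT mean of this list is pulled down by 1 library. By this sum, with Cck, Sst and Npy counted, the 3 other WT libraries also lay below every MFN2 library, as the separation of all the sums implies. Without Cck, Sst and Npy, those 3 WT libraries lay above MFN2 library 43 and below MFN2 libraries 41 and 42. The summed level of mitophagy, autophagy and lysosome genes was 2873 CPM in WT library 44 against 3224 to 3274 CPM.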

How the results depend on the processing

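With library 43, Rpsa-ps10 was called under 14 of 22 alternatives. The count of 1 gene became 0 without a filter on low counts, with limma-voom, with all 12 libraries in 1 fit and with Xist as a covariate (1513, 745, 2343 and 383 genes had an unadjusted p under 0.05), 5 with DESeq2 (Rpsa-ps10, Atp6v0c-ps2, Acaa1a, Snx4 and Gm37176), and between 0 and 2 when 1 library was left out, being 0 without any 1 of WT libraries 44 to 47 (902, 560, 492 and 379 genes with an unadjusted p under 0.05). Rpsa-ps10 had an adjusted p of 0.133 with limma-voom. Without library 43, it was called under 17 of 20 alternatives, and not with all 12 libraries in 1 fit or without WT library 46 or 47. The count became 161 without a filter (Rpsa-ps10 among them), 10 with the likelihood ratio test, 11 with DESeq2, 0 with all 12 libraries in 1 fit (1185 with an unadjusted p under 0.05), and between 0 and 7 when 1 more library was left out (0 without WT library 46 or 47, with 647 and 574 genes at an unadjusted p under 0.05, 2 without MFN2 library 41, 7 without WT library 44, 4 without WT library 45). For these changes the cause was not tested. For Mfn2, the difference in mean log2 CPM ranged from 0.010 to 0.087 when 1 library was left out and was 0.019 under upper-quartile scaling. For the 43 named genes of the comparison, each followed in the fit that chose it under the other scalings, DESeq2, limma-voom, the test without the robust option and leave-one-out, 0 of 543 values turned direction, 5 (all Rpsa-ps10) lost and 8 gained a call. Most of these genes were chosen because their groups did not overlap. A turn of direction was therefore hardly possible, and the 0 gives no support to them. A fit that leaves 1 MFN2 library assumes that it varies like the others. No paired analysis was possible because the library numbers are not shared between the groups. Genes near 1 CPM rest on few counts and are the least precise.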

Other observations

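Several loci, singled out after their values were seen, grouped WT library 44 with the MFN2 libraries. Glo1, a glyoxalase gene whose copy number is known to differ between mouse strains, was 70.0, 68.4 and 43.2 CPM in libraries 41 to 43 and 67.3 CPM in WT library 44, against 106 to 110.1 CPM in WT libraries 45 to 47. The processed pseudogene Atp6v0c-ps2 was 0.45, 0.90 and 1.18 CPM in libraries 41 to 43 and 1.16 CPM in library 44, against 13.9, 15.5 and 14.0 CPM in libraries 45 to 47. Hmga1b was between 0.56 and 1.13 CPM in libraries 41 to 44 and between 6.13 and 7.01 CPM in libraries 45 to 47, and the pseudogene Gm9825 was between 0.30 and 0.37 CPM against 2.34 to 3.02 CPM. Wdfy1 split the libraries otherwise, at 30.3 and 31.5 CPM in WT libraries 45 and 46 and between 11.7 and 15.1 CPM in the other 5. The WT libraries thus differed among themselves at these loci, and their part in the genotype comparison was not tested.

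Other duplicated loci differed between single mice of 1 genotype. Gm12892, a processed pseudogene on chromosome 4, was 17.5 CPM in MFN2 library 41 but 1.88 and 1.51 CPM in libraries 42 and 43, against 16.4 to 20.3 CPM in WT. Gm8210 was 5.15 and 4.40 CPM in MFN2 libraries 41 and 42 and 4.59 CPM in WT library 45, and at most 0.05 CPM in the other 4 libraries. Lars2 and Gm26870, on chromosome 9 like Mir6236, were likewise low in libraries 41 and 42. Lars2, which encodes a mitochondrial leucyl-tRNA synthetase, was 449 and 425 CPM there, 903 CPM in library 43 and 1154, 601, 1125 and 958 CPM in WT libraries, and Gm26870 was 0.04 and 0.15 CPM there, 2.97 CPM in library 43 and between 1.52 and 3.46 CPM in WT libraries.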
